A study of Mus musculus with 2 samples.

Results

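The 10 genes described here, Ucp1, Dio2, Ppargc1a, Ppargc1b, Prdm16, Elovl3, Kcnk3, Otop1, Ckmt2 and Tmem26, are genes known from thermogenic adipocytes, the fat cells that burn lipid to make heat. They were chosen by symbol, as every probe set whose platform gene symbol is one of these names, and each gene had 1 probe set, so that they are 10 of 19505 genes with a symbol on an array of 22206 probe sets. RNA came from the epididymal fat of KO_A12 mice, which carry a whole-body Iah1 deletion made with CRISPR/Cas9 in exon 1 that shifts the reading frame, and of WT_A12 mice, which carry the intact gene. Both lines have the A/J-12SM consomic background, an A/J genome in which chromosome 12 comes from SM/J, and all mice were males, kept 1 per cage, that received a high-fat diet from the age of 6 weeks until 18 weeks and were fasted for 4 h. The KO_A12 line was kept by mating homozygous mice with each other, and A/J-12SM mice served as WT_A12 controls. The pools therefore came from separately bred lines and not from littermates. Effects of line and of genotype cannot be told apart in the differences below. RNA of 3 mice was pooled per genotype and measured on 1 Clariom S Mouse Array, which gives 1 log2 signal per probe set. The data therefore hold no replicate, no spread between mice and no test, and every difference below is the log2 signal of the KO_A12 pool minus that of the WT_A12 pool.

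Brown adipocytes, and the beige adipocytes that can appear in white fat, make heat on demand. Noradrenaline from sympathetic nerves raises cyclic AMP in the cell, fatty acids are set free, and uncoupling protein 1 lets protons return across the inner mitochondrial membrane without making ATP. Epididymal fat of the mouse is a white depot in which beige adipocytes are known to be scarce. In this fat all 11 measured white adipocyte markers, such as Adipoq and Lep, were far above background on both arrays, with log2 signals from 9.66 to 19.05 in the KO_A12 pool and from 9.46 to 19.10 in the WT_A12 pool.

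The KO_A12 pool had a lower signal of Ucp1, and the measured values of the other 9 thermogenic genes had no common shift. Of these 9 genes 5 were under background on both arrays, so that their directions are uncertain. Ucp1 was the only one of the 10 genes that passed both cutoffs of the study, a log2 difference under -1 with a WT_A12 log2 signal over 7, and 0.757% of all probe sets passed them. It did not pass when the signal had to be over 7 on both arrays or when the cutoff was 8. No member passed the cutoffs for a higher signal, a difference over 1 with a KO_A12 signal over 7, which 0.567% of all probe sets passed. Of the 10 genes 5 were lower in the KO_A12 pool and 5 higher, and their median difference was 0.05, beside 0.00 over all probe sets, of which 49.8% were lower. Without Ucp1 the other 9 had a median of 0.09 and ran from -0.54 for Otop1 to 0.98 for Elovl3, and 7 of the 10 genes differed by less than 0.5.

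Most of these genes were close to the background of the array or under it, which held for most probe sets of the array too. Background was taken from the 23 control rows that the array names as background, and a gene was called above background on an array when its signal passed the 95th percentile of these rows there, 6.83 in the KO_A12 pool and 6.95 in the WT_A12 pool. By this measure 4 of the 10 genes were above background in the KO_A12 pool and 4 in the WT_A12 pool, while 47.3% of all probe sets were in the KO_A12 pool and 46.3% in the WT_A12 pool. Ppargc1b, Kcnk3 and Otop1 were above it on both arrays, Ppargc1a in the KO_A12 pool only and Ucp1 in the WT_A12 pool only. Dio2, Prdm16, Elovl3, Ckmt2 and Tmem26 were under it on both arrays. The sizes and directions of their differences are therefore uncertain and no fold is given for them.

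**Figure D1:**
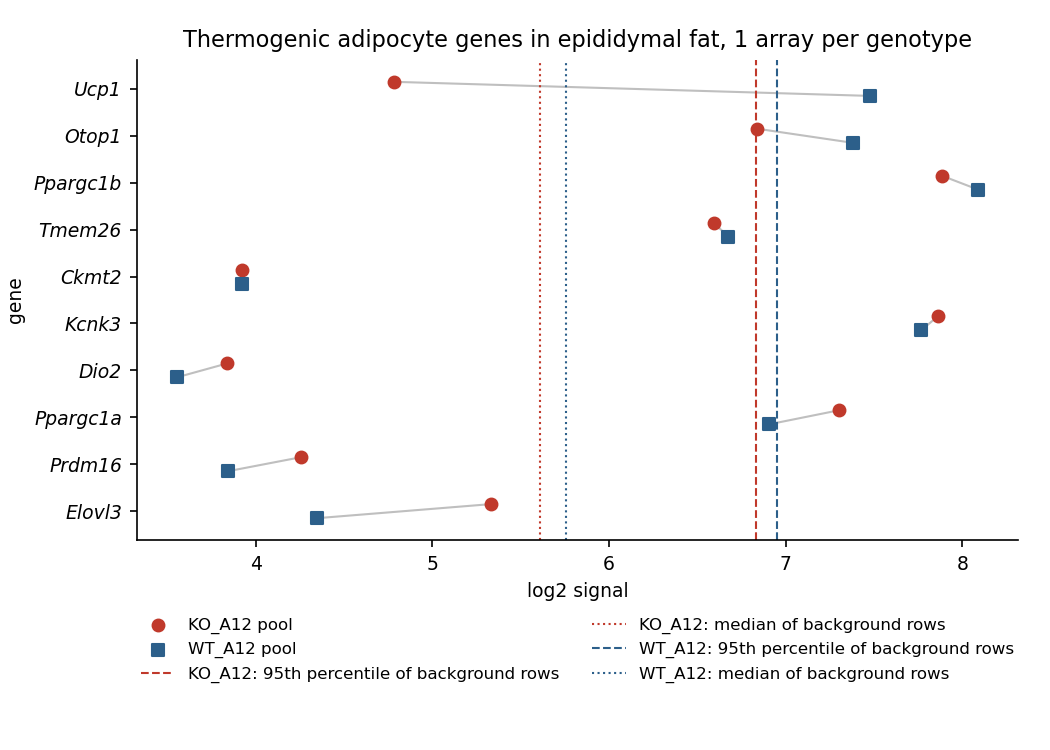
The log2 signal (horizontal axis) of each of the 10 genes (vertical axis, ordered from the lowest to the highest difference) is drawn as a circle for the KO_A12 pool and a square for the WT_A12 pool, joined by a line. Dashed and dotted lines mark the 95th percentile and the median of the background rows on each array. The line of Ucp1 is the longest, with 4.78 in the KO_A12 pool and 7.47 in the WT_A12 pool, and 5 genes lie to the left of the dashed lines on both arrays.

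Ucp1, the uncoupling protein that makes the heat, had a log2 signal of 4.78 in the KO_A12 pool and of 7.47 in the WT_A12 pool, a difference of -2.69. In the WT_A12 pool it exceeded all 23 background rows, and in the KO_A12 pool it exceeded 11 of them, so that by these rows it was above background in WT_A12 fat alone. Set against the background threshold of the KO_A12 array, the signal was at least 1.56-fold lower in the KO_A12 pool, a bound and not an estimate. The sizes of differences that involve signals under background are uncertain, and a rank by them only describes the measured values. By measured values the whole array held 1 probe set with a lower difference, which has no gene symbol and had signals of 3.38 in the KO_A12 pool and 6.60 in the WT_A12 pool, and the next after Ucp1 was Prm2, a protamine of sperm chromatin, at -2.67. Among 4636 probe sets with a mean signal from 5 to 7, the class that holds Ucp1, the central 95% of differences lay between -0.96 and 1.08, and no other measured difference was as low. Fewer Ucp1-expressing cells and less Ucp1 RNA per cell cannot be told apart in pooled tissue.

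The array also carries 5222 control rows named neg, whose design the sources used here do not give, and these varied more between the arrays than genes did. Of these rows 3.93% passed the cutoffs for a lower signal and 4.94% those for a higher one. Their central 95% ran from -1.57 to 1.64, and 22 of them had a difference as low as that of Ucp1 or lower, 10 of these among the 2028 rows with a mean signal from 5 to 7. The signal of Ucp1 was above 18.9% of these rows in the KO_A12 pool and above 68.8% in the WT_A12 pool. A difference of this size therefore also occurred on rows that the file marks as controls, at a rate higher than on gene probe sets.

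**Figure D2:**
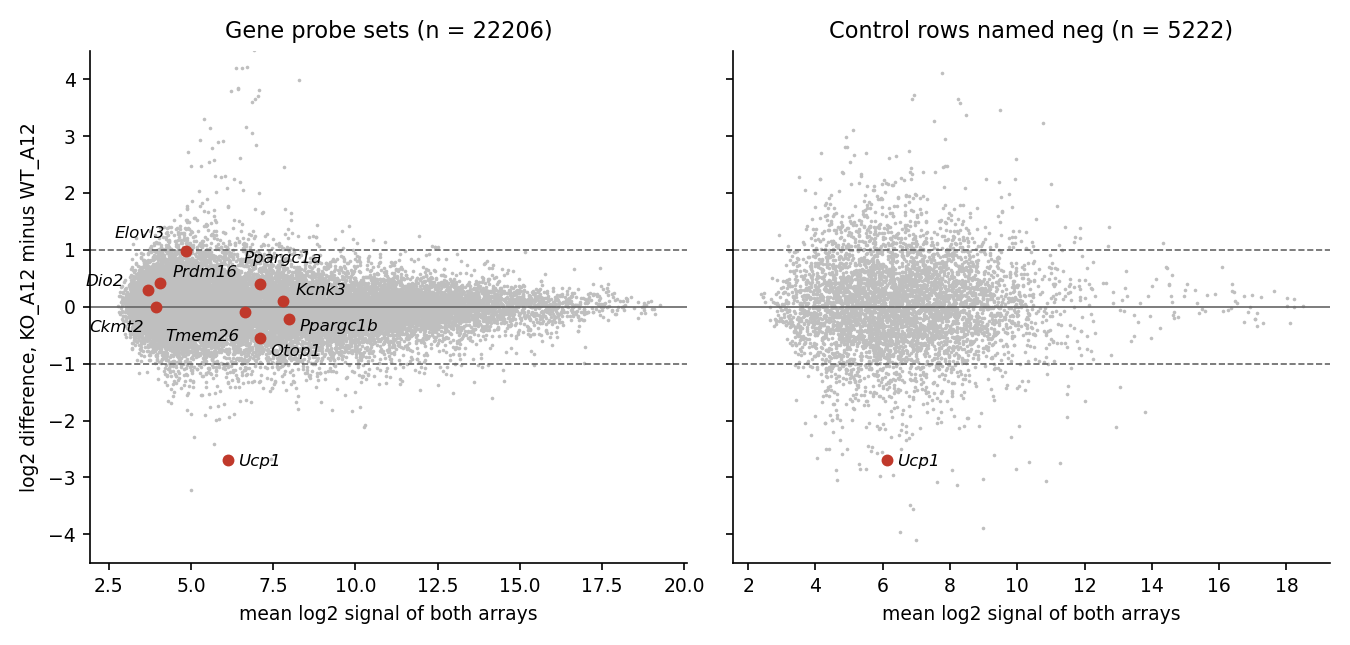
The log2 difference, KO_A12 minus WT_A12 (vertical axis), is plotted against the mean log2 signal of both arrays (horizontal axis) for 22206 gene probe sets (left) and 5222 control rows named neg (right), with the 10 genes in red on the left and Ucp1 repeated on the right. Dashed lines mark differences of 1 and -1, and 25 probe sets and 5 control rows lie outside the axis. Ucp1 stands below nearly all probe sets on the left and among scattered control rows on the right, while the other 9 genes lie within the cloud.

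Of 5 relatives of Ucp1 among the mitochondrial carriers 4 were measured, and Ucp2, a symbol that the annotation gives to no probe set, was not analysed here. Ucp3, an uncoupling protein of muscle and brown fat, had a signal of 8.91 in the KO_A12 pool and 9.50 in the WT_A12 pool, a difference of -0.59. Slc25a30, a mitochondrial carrier related to it, had 7.64 in the KO_A12 pool and 7.06 in the WT_A12 pool, a difference of 0.58. The brain carriers Slc25a14, with 5.75 in the KO_A12 pool and 6.34 in the WT_A12 pool, and Slc25a27, with 6.12 in the KO_A12 pool and 6.26 in the WT_A12 pool, were under the background threshold on both arrays. None of these 4 passed the cutoffs.

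The genes of the same array that were most like Ucp1 in their 2 signals were Adam5, Foxp2, Smcp, Lelp1 and Fabp9, by Euclidean distance on the log2 scale. Adam5 was nearest, at a distance of 0.13, with 4.72 in the KO_A12 pool and 7.36 in the WT_A12 pool, and the fifth, Fabp9, lay at 0.71 with 4.77 in the KO_A12 pool and 6.77 in the WT_A12 pool. Since these genes were picked by the signals of Ucp1, nothing is read from their likeness to it. Adam5 and Smcp are among 11 testis germ cell markers. Of these 10 were lower in the KO_A12 pool, beside 49.8% of all probe sets. The 3 that passed the cutoffs, Prm2, Adam5 and Smcp, were above background in the WT_A12 pool only, and 0.757% of all probe sets passed. The sizes of their differences are therefore uncertain. The median difference of the 11 markers was -1.40. Above background were 2 of the 11 in the KO_A12 pool and 5 in the WT_A12 pool, where the signals of the 11 ran from 4.95 to 8.76. Only 5 of the 11 were above background on at least 1 array. Prm1 and Acr, the markers above background on both arrays, had differences of -0.68 and -0.33 and did not pass the cutoffs. Testis lies beside epididymal fat, and 10 of these 11 markers were, like Ucp1, lower in the KO_A12 pool. The part of these markers in the difference of Ucp1 was not tested.

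Dio2 and Ppargc1a stand upstream of Ucp1 in the response to cold. Dio2 encodes the deiodinase that turns thyroxine into active thyroid hormone inside brown adipocytes, and Ppargc1a encodes the coactivator PGC-1 alpha, which cyclic AMP induces and which drives mitochondrial biogenesis and Ucp1. Dio2 had a signal of 3.84 in the KO_A12 pool and 3.55 in the WT_A12 pool, each above 8 of the 23 background rows. Ppargc1a had 7.30 in the KO_A12 pool and 6.91 in the WT_A12 pool, a difference of 0.40. It passed the threshold in the KO_A12 pool and missed it by 0.043 in the WT_A12 pool. Against that threshold its measured signal was at least 1.28-fold higher in the KO_A12 pool. The difference of Ppargc1a lay within the central 95% of its signal class, from -0.93 to 0.84. Dio2, under background on both arrays, has no direction that can be read. Ppargc1b, the related coactivator PGC-1 beta, which is not known as a strong target of cold, had 7.88 in the KO_A12 pool and 8.09 in the WT_A12 pool. Its difference was -0.21, within the central 95% of its signal class, from -0.93 to 0.84.

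The promoters of Ucp1, Dio2 and Ppargc1a are shown because these 3 genes are known targets of cyclic AMP. The measured differences of Ucp1 and Ppargc1a had opposite signs, that of Ppargc1a within the central 95% of its signal class. Dio2 was under background on both arrays. Each is the 250 bases before the transcription start in the RefSeq annotation of GRCm38.p6, the C57BL/6J reference and not the sequence of the mice studied. Capitals mark matches to the cyclic AMP response element TGACGTCA, to its first 5 bases TGACG, and to the TATA box TATAAA, searched on both strands.
Ucp1, chr8:83290098-83290347, plus strand: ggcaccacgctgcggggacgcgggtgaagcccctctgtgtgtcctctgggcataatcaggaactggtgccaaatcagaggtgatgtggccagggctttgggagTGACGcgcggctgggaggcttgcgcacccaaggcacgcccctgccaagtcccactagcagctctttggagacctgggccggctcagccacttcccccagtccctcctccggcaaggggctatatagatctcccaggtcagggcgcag
Dio2, chr12:90739039-90739288, minus strand: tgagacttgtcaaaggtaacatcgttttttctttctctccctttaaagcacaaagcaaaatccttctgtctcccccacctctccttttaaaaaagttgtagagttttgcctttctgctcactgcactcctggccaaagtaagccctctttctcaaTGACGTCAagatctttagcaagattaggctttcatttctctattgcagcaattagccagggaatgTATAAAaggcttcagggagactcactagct
Ppargc1a, chr5:51567726-51567975, minus strand: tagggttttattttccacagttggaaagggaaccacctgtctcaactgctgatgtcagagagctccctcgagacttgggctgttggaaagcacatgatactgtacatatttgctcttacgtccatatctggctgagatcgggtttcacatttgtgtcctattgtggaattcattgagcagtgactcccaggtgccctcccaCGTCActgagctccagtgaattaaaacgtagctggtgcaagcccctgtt
Dio2 held the full element, from base -95 to -88 before the start, together with a TATA box from -30 to -25. Ucp1 held TGACG from -147 to -143, and Ppargc1a held it on the reverse strand, printed as CGTCA, from -49 to -45. The full element occurs in 1.5% of 32851 promoter windows of this length, TGACG, which the full element contains, in 17.8%, and TATAAA in 12.4%. Windows were searched for 7 of the 10 genes, as only entries of full length were kept and the chromosome of Ppargc1b was left out. The windows of Otop1 and Tmem26 held none of these motifs. The windows of Prdm16 and Ckmt2 held only the CCAAT box, which is found in 33.8% of windows. A match describes the letters and is not evidence of binding.

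Prdm16 is the transcriptional regulator that fixes brown over muscle fate, and Elovl3 is an elongase of very long chain fatty acids that cold induces in mouse brown fat. Both were under background on both arrays, so that no direction can be read from their differences. Prdm16 had 4.26 in the KO_A12 pool and 3.84 in the WT_A12 pool, a difference of 0.41. Elovl3 had 5.33 in the KO_A12 pool and 4.35 in the WT_A12 pool, and its difference of 0.98 was 0.016 short of the fold cutoff, with 342 probe sets of the array higher. Elovl3 would not have been called at any fold cutoff, since its KO_A12 signal was under 7. Among the other elongases Elovl6, which lengthens palmitate, had a difference of -0.32 with 10.26 in the KO_A12 pool and 10.59 in the WT_A12 pool. Elovl1 was at -0.17 and Elovl5 at -0.06. Elovl2, Elovl4 and Elovl7 had measured differences of 1.53, 0.36 and 0.15 at signals under background on both arrays, and no direction is read from these either. Mecom, a relative of Prdm16, had 9.76 in the KO_A12 pool and 9.66 in the WT_A12 pool.

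The membrane channels and surface markers differed little. Kcnk3, a background potassium channel that is abundant in brown fat and limits its adrenergic response in mice, had 7.86 in the KO_A12 pool and 7.77 in the WT_A12 pool. Otop1, a proton channel first known from the inner ear and also made in brown fat, had 6.84 in the KO_A12 pool and 7.38 in the WT_A12 pool, a difference of -0.54, and 1828 probe sets were lower. It was only 0.0053 over the threshold in the KO_A12 pool, and its measured signal was 1.45-fold lower there. Tmem26, a surface protein of mouse beige adipocytes, had 6.59 in the KO_A12 pool and 6.67 in the WT_A12 pool, above 17 background rows in the KO_A12 pool and 18 in the WT_A12 pool. Each of these differences lay inside the central 95% of probe sets, from -0.84 to 0.86. Kcnk1, a potassium channel of the same family as Kcnk3, had 7.17 in the KO_A12 pool and 6.24 in the WT_A12 pool, a measured signal at least 1.17-fold higher. Its difference of 0.93 lay within the central 95% of its signal class, from -0.96 to 1.08. The relatives Kcnk6 and Kcnk2 had differences of -0.32 and 0.15. The otopetrins Otop2 and Otop3 were under background on both arrays.

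Heat can also be made without Ucp1, by cycles that spend ATP on creatine or calcium. Ckmt2, a creatine kinase of mitochondria, had 3.92 in the KO_A12 pool and 3.93 in the WT_A12 pool, the smallest difference of the 10 genes, at a signal above 9 background rows. Of 7 other creatine cycle genes 5 were lower in the KO_A12 pool, with a median of -0.13, and 1 passed the cutoffs. This was Ckb, the cytosolic creatine kinase that serves the creatine cycle of mouse brown fat, with 11.26 in the KO_A12 pool and 12.37 in the WT_A12 pool, a difference of -1.11. Gamt and Gatm, the enzymes of creatine synthesis, had differences of -0.43 and -0.36. All 4 calcium cycle genes were higher, with a median of 0.29, but only Atp2a2, a calcium pump of the endoplasmic reticulum, was above background, with 14.05 in the KO_A12 pool and 13.73 in the WT_A12 pool.

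A wider set of 17 measured brown and beige adipocyte genes had no common shift either. Their median was 0.01, with 8 genes lower in the KO_A12 pool and 9 higher. The 7 genes above background, the same on both arrays, had a median of -0.16. Over all probe sets above background on at least 1 array the median was -0.04. Cidea, a lipid droplet protein of brown fat, passed the cutoffs with 7.47 in the KO_A12 pool and 8.89 in the WT_A12 pool, a difference of -1.42. Cox7a1 and Cox8b, cytochrome oxidase subunits of muscle and brown fat, went opposite ways. Cox7a1 had 7.59 in the KO_A12 pool and 6.99 in the WT_A12 pool, and Cox8b had 7.37 in the KO_A12 pool and 7.62 in the WT_A12 pool. Skeletal muscle shares such subunits, and of its 11 markers 2, Acta1 and Ckm, were above background, with differences of -0.62 and -0.13 and a median of 0.09 over the list.

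The signalling that switches the programme on was well measured and had small differences. All 10 measured genes from noradrenaline to cyclic AMP were above background on both arrays, 7 were lower in the KO_A12 pool, the median was -0.11 and none passed the cutoffs. Mapk14, the p38 kinase that acts on PGC-1 alpha, and Prkaca, the catalytic subunit of protein kinase A, had differences of -0.43 and -0.41, while the adenylyl cyclase Adcy6 had 0.31. None of 5 sympathetic nerve markers was above background, with a median of -0.23. Among 5 genes of thyroid hormone transport, activation and reception 3 were lower, with a median of -0.04. The thyroid hormone transporter Slc16a10 had -0.61, the receptor genes Thra and Thrb 0.50 and -0.23.

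Of 17 transcriptional activators of the programme 10 were lower in KO_A12 fat, with a median of -0.08. Klf11, a Krüppel-like factor of the beige programme in human adipocytes, was the only one past the cutoffs, with 7.99 in the KO_A12 pool and 9.21 in the WT_A12 pool, a difference of -1.22. Ppara, a nuclear receptor of fatty acid oxidation, was at least 1.65-fold higher, with 7.67 in the KO_A12 pool and 6.92, just under background, in the WT_A12 pool. Ebf2, which marks brown and beige precursors, had 9.64 in the KO_A12 pool and 10.36 in the WT_A12 pool. Of 9 repressors 4 were lower, with a median of 0.10, and differences of 0.24 for Zfp423, which keeps white adipocytes white, -0.23 for Rb1 and 0.15 for its relative Rbl1. The activators and repressors thus showed no shared direction.

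Downstream of the PGC-1 coactivators, 12 of 16 mitochondrial target genes were higher in KO_A12 fat, and their median was 0.13. All were above background on both arrays and none passed the cutoffs in either direction. The respiratory chain subunits Cox4i1, Uqcrc2 and Cox5a had differences of 0.42, 0.37 and 0.32. Of 7 factors that thermogenic fat secretes 4 were lower, with a median of -0.10. Metrnl, the hormone meteorin-like, was the only one past the cutoffs, at -1.20, while Vegfa, the angiogenic growth factor, had 0.56 and the chemokine Cxcl14 had -0.13. The lists of the pathway therefore had medians between -0.13 and 0.29 over all their measured genes. Their called genes were Cidea of 17 brown and beige genes, Klf11 of 17 activators, Ckb of 7 creatine cycle genes and Metrnl of 7 secreted factors. All of them were lower, while 0.757% of all probe sets passed the cutoffs for a lower signal and 0.567% those for a higher one. The lists were chosen with earlier results of these data known, so nothing is read from this count.

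**Figure D3:**
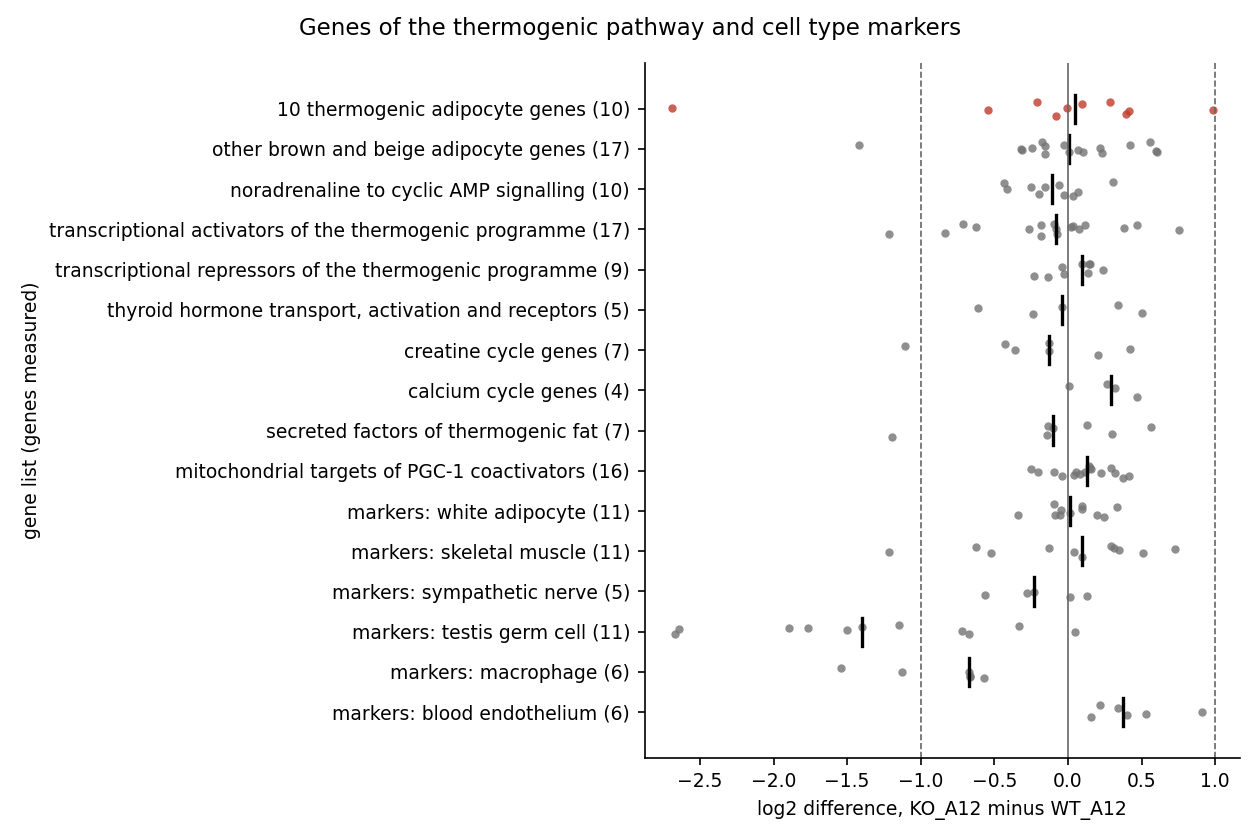
Each point is the log2 difference, KO_A12 minus WT_A12 (horizontal axis), of 1 gene in a list (vertical axis, with the number of genes measured), and the black bar is the median of the list, without an error since each genotype has 1 array. Dashed lines mark 1 and -1. The 10 thermogenic genes (red) have a median of 0.05 with Ucp1 far to the left, and all macrophage markers and 10 of 11 testis germ cell markers lie to the left of 0. Liver and seminal vesicle markers, which all had measured differences of 2.20 or more, and relatives of the 10 genes are not drawn.

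Markers of other tissues differed between the pools by more than most thermogenic genes did. All 8 liver and all 5 seminal vesicle markers passed the cutoffs for a higher signal in the KO_A12 pool, most of them only through that pool, since 1 liver and 0 seminal vesicle markers were above background in the WT_A12 pool. Alb, the liver marker above background on both arrays, had 15.99 in the KO_A12 pool and 8.22 in the WT_A12 pool. Against the WT_A12 background threshold, the lower bounds on the fold ran from 1.07 to 11.5 for the other liver markers and from 3.33 to 64.6 for the seminal vesicle markers. All 6 macrophage markers were lower, with a median of -0.67, and Itgb2 and Cd14 passed the cutoffs. All 6 blood endothelium markers were higher, with a median of 0.37, and the 11 white adipocyte markers had a median of 0.02. Iah1, the targeted gene, had 8.35 in the KO_A12 pool and 9.52 in the WT_A12 pool, a difference of -1.17, and the sources used here do not say where its probes lie relative to the deletion. What part these tissue markers have in the values of the thermogenic genes was not tested.

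The background rows themselves were alike on both arrays. Their differences ran from -0.14 to 0.36 with a median of -0.03, and 14 were lower in the KO_A12 pool, 3 higher and 6 equal. Their level depended on the GC number in their names, from a minimum at 15, with 2.83 in the KO_A12 pool and 2.88 in the WT_A12 pool, to a maximum at 5, with 7.21 in the KO_A12 pool and 7.14 in the WT_A12 pool. A single threshold per array therefore stands over rows that span more than 4 units of the log2 scale, and the GC content of the probes for the 10 genes was not used here.

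**Figure D4:**
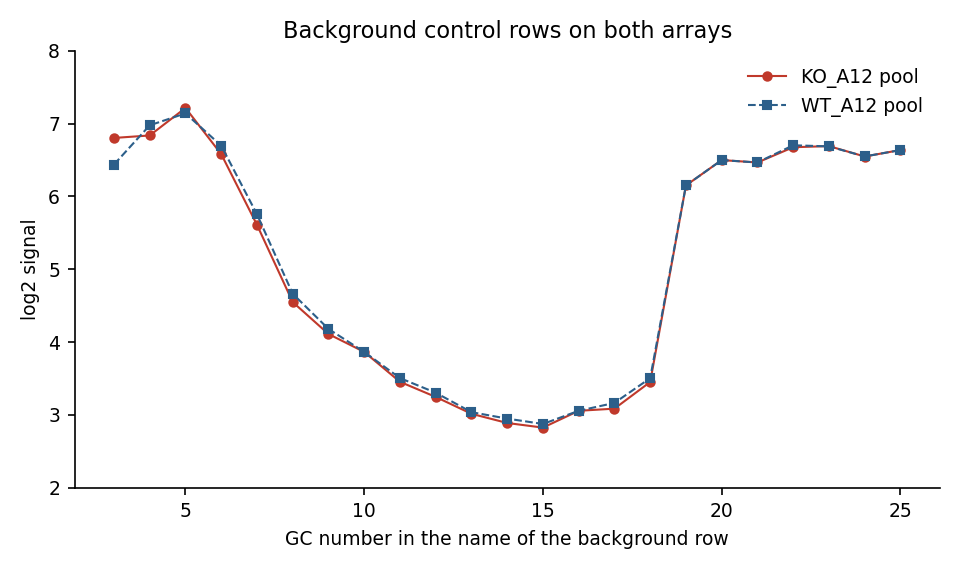
The log2 signal (vertical axis) of the 23 background control rows is drawn against the GC number in their names (horizontal axis), with circles for the KO_A12 pool and squares for the WT_A12 pool. The rows lie high at low and at high GC numbers and low between them, and the 2 arrays nearly coincide.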

How the data were processed

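Each genotype was measured on 1 Clariom S Mouse Array from 3 mice, with 100 ng of pooled RNA as input. The deposited log2 signals, which the authors made with a robust multi-array average (SST-RMA, or STT-RMA as spelled in the methods, and RMA in the submitters' processing notes), were used as they stand. The genome build was not given in the sources used here. A table of 28846 rows held 6640 controls and 22206 probe sets, of which 19572 carry 1 symbol in the platform annotation. The number of arrays limits the precision. A bound on a fold was taken against the background threshold of the array on which the gene was not above it. The members, the gene lists and the naming rule were chosen with earlier results of these data known. The rule names all members, Iah1, the uncoupling protein relatives, the 5 genes nearest to Ucp1 and, of each other list, up to 3 genes above background on at least 1 array, those that differed most. Elovl2, Elovl4, Elovl7, Otop2, Otop3, Prm1 and Acr were named after their values were seen. Genes without a symbol match were left out of their lists. Alternatives were median centring, quantile normalization, a lowess trend (span 0.3), other cutoffs and other background thresholds. The computation was tested on simulated data. The tools were matplotlib 3.10.9, statsmodels 0.14.6, scipy 1.17.1, pandas 2.3.3, numpy 2.4.6 and Python 3.11.15.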

Additional observations from a re-analysis of the deposited data

How the results depend on the processing

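With 1 array per genotype, the differences have no replicate check. No paired analysis was possible because only 1 array was run per genotype. The call of Ucp1 as lower depends on the signal cutoff. It was kept at 1.5-fold, at 3-fold, without a signal cutoff and under the 3 scalings, but 0 genes were called lower with a cutoff of 7 applied to both arrays, and 0 with a cutoff of 8, since Ucp1 was at 4.78 in the KO_A12 pool and 7.47 in the WT_A12 pool. Under these settings 0 genes were called higher. Of the 5 members above background on at least 1 array 3 were lower, against 5 of all 10, with a median of -0.21. Ucp1 enters that set only through the WT_A12 pool and Ppargc1a only through the KO_A12 pool, so that their own differences helped to choose it and nothing is read from it. The median of all 10 was 0.04 to 0.05 under the scalings, the mean was -0.14, and the median without Ucp1, an alternative added after seeing the data, was 0.09. With the 95th percentile of the neg rows as threshold, also added after seeing the data, 0 of the 10 were above background in the KO_A12 pool and 0 in the WT_A12 pool. That threshold was 10.27 in the KO_A12 pool and 10.23 in the WT_A12 pool. With the median of the background rows 5 were above it in the KO_A12 pool and 6 in the WT_A12 pool, and with their 99th percentile 3 in the KO_A12 pool and 4 in the WT_A12 pool. Across 70 named genes and 3 scalings 0 of 210 differences turned sign, and the members moved by at most 0.069.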
